A study of Mus musculus with 24 samples.

Results

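The proteasome genes of the mouse medial prefrontal cortex (mPFC) were examined in poly(A) RNA-seq data. They were taken as every protein-coding row whose gene name starts with Psm, followed by a letter from a to g and a digit, which gave 47 of the 15456 genes in the table. The study asked how the bacterium *R. flavefaciens* acts on the brain when it is given with or without the antidepressant duloxetine, an inhibitor of serotonin and noradrenaline reuptake. Brain tissue came from 24 BALB/C mice at postnatal week 11, with 6 mice in each of 4 groups. The methods describe male mice of the BALB/c OlaHsd substrain. The control group received PBS according to the methods and carries the label no treatment. The duloxetine group received the drug by daily i.p. injection, the *R. flavefaciens* group received the bacterium by gavage, and the combined group received both. Each library is whole tissue from 1 mouse, so fewer cells of a type and less RNA per cell cannot be told apart, and p-values measure the spread between these mice. Reads were recovered from the step between neighbouring normalized values and summed over the 15456 genes. The sums were 12811413 to 15607343 per mouse, with group medians of 13591497 (control), 14536037 (duloxetine), 13943370 (*R. flavefaciens*) and 14621656 (combined). They leave out reads outside these genes and are not the full sequencing depth.

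The proteasome is the large protease that degrades proteins tagged with ubiquitin. Its barrel-shaped 20S core is built from rings of alpha subunits (*Psma* genes) around rings of beta subunits (*Psmb* genes), and some beta subunits carry the catalytic sites. The 19S regulatory particle binds ubiquitin, unfolds the substrate with a ring of ATPases (*Psmc* genes) and removes the ubiquitin chain through its non-ATPase subunits (*Psmd* genes). In neurons the proteasome turns over synaptic proteins, and in cells exposed to interferon inducible catalytic subunits replace the constitutive ones to form the immunoproteasome.

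The 47 genes held 17 core subunits, namely 7 of the alpha ring, 3 constitutive catalytic, 3 inducible catalytic and 4 other beta subunits. A further 20 were regulatory, with 6 ATPases, 3 non-ATPase subunits of the base, 8 lid subunits and 3 chaperones that assemble the base. The other 10 were 4 activators (*Psme*), 1 inhibitor (*Psmf1*), 4 chaperones that assemble the core (*Psmg*) and *Psmc3ip*, which matches the name pattern but encodes a meiotic recombination factor and not a subunit. All 47 had a mean of at least 10 normalized counts and were tested. Their transcripts were short, with a median length of 1440 bases against 3132 for all genes tested, and core transcripts (median 1183 bases) were shorter than regulatory ones (1844.5 bases).

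Before any comparison, 2 mice of the *R. flavefaciens* group stood apart in these genes. The mean deviation of the 47 genes from the 24-mouse mean, on the log2 (normalized count + 1) scale, was 0.19 in mouse 7_2 and 0.26 in mouse 9_3, whereas the third highest mouse of that group had 0.058. The controls lay between -0.047 and 0.0028, the duloxetine mice between -0.067 and 0.0075, and the combined mice between -0.091 and 0.032. Mouse 7_2 had 42 of the 47 genes above the control mean and mouse 9_3 had 44. Counts, medians and called genes of the comparisons with the *R. flavefaciens* group are therefore also given without these 2 mice, a choice made after their values were seen. Mouse 8_4 of the same group carried the highest summed counts of striatum markers (4859.1, against at most 2865.3 in the other 3 groups) and choroid plexus markers (791.0, against at most 151.8), while its proteasome deviation was 0.058. Excitatory neuron markers, which belong to the labelled cortex, summed to at least 99899 normalized counts in every mouse, with *Camk2a* the most abundant. These sums do not show that a sample held cortex alone.

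Proteasome genes were strongly expressed in control mPFC. Per kilobase of transcript, 42 of the 47 genes lay above the median of all genes tested, which was 93.5 normalized counts per kilobase. The highest level belonged to *Psmc5*, an ATPase of the base, at 1532 ± 60.8 normalized counts per kilobase (SD, n = 6), followed by the beta subunit *Psmb4* at 1183 ± 40.0 and *Psmd2*, a scaffold subunit of the base, at 1176 ± 24.4. The constitutive catalytic subunits ranked 6, 8 and 11 among the 47 genes. *Psmb6* (caspase-like site) stood at 1025 ± 42.3, *Psmb5* (chymotrypsin-like site) at 924.5 ± 38.8 and *Psmb7* (trypsin-like site) at 742.1 ± 29.0 normalized counts per kilobase. Median levels per kilobase were 577.5 for the alpha ring, 673.5 for the other beta subunits, 877.8 for the ATPases and 552.9 for the lid. Assembly factors were far lower, with medians of 128.2 for the base chaperones and 100.8 for the core chaperones. The inducible catalytic subunits did not form 1 level, because *Psmb10* stood at 308.8 ± 8.83, while *Psmb8* (10.9 ± 2.42) and *Psmb9* (10.5 ± 3.39) were at the bottom of the list together with *Psmc3ip* (11.8 ± 4.06). In this order, 30 of the 46 neighbouring pairs differed by less than 1 SD, so that the rank of *Psmb4* over *Psmd2*, for example, is within the spread between mice.

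**Figure D1:**
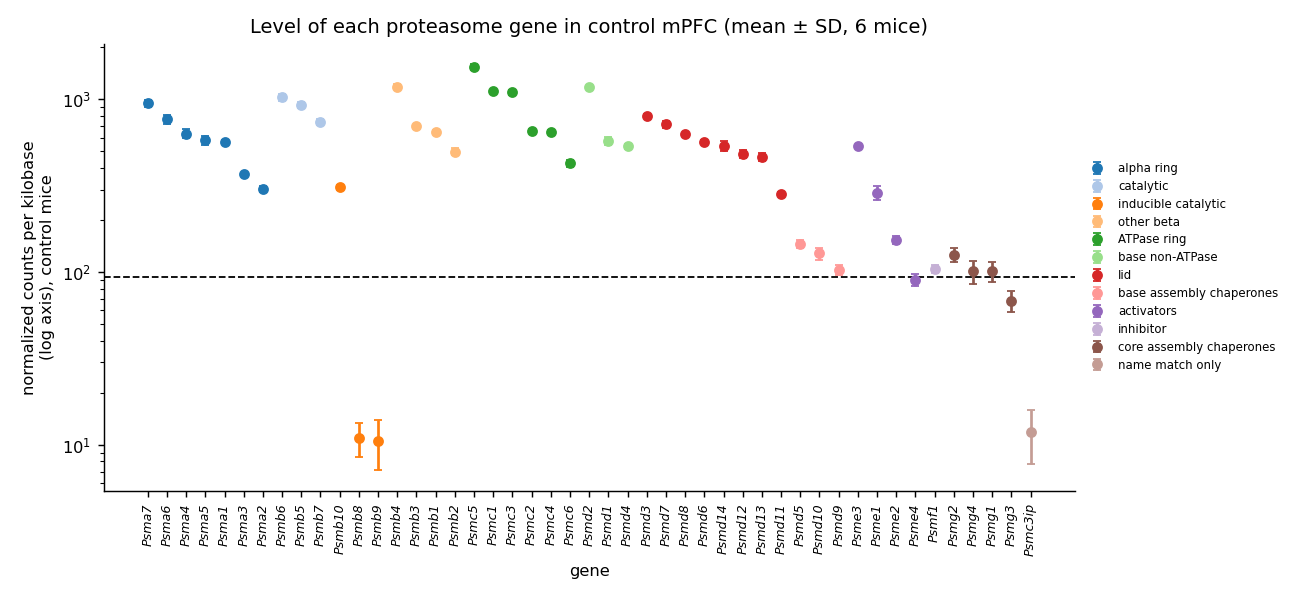
Level of each proteasome gene in the 6 control mice (mean ± SD, normalized counts per kilobase of transcript, logarithmic axis), with genes grouped and coloured by role and the dashed line at the median of all genes tested (93.5). Core and regulatory subunits lie above the line apart from *Psmb8* and *Psmb9*, which sit near 11 with *Psmc3ip*.

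Promoter sequence was available from RefSeq (GRCm38.p6) for 40 of the 47 genes by symbol. Shown here are the 120 bases before the RefSeq start of 4 of the 5 genes that passed the test in any comparison, and of the catalytic subunits *Psmb5* and *Psmb6*, for which the antioxidant response core was found. Each runs 5′ to 3′ on the strand of the gene, and capitals mark the motif letters found on either strand.
Psmb4 chr3:94886959-94887078 (minus strand): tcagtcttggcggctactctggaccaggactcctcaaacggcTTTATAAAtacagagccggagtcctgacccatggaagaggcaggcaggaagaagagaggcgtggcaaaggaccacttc
Psmc4 chr7:28050093-28050212 (minus strand): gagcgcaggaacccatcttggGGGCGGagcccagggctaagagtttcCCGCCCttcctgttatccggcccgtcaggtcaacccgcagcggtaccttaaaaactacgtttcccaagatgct
Psmd13 chr7:140882274-140882393 (plus strand): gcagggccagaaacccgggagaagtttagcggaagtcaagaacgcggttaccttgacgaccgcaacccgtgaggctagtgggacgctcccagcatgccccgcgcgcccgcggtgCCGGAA
Psme4 chr11:30771655-30771774 (plus strand): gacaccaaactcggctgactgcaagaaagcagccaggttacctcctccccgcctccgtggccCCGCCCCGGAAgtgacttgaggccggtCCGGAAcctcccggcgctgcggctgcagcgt
Psmb5 chr14:54617996-54618115 (minus strand): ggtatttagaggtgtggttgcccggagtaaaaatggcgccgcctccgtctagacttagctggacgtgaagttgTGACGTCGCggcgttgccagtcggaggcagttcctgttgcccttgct
Psmb6 chr11:70525237-70525356 (plus strand): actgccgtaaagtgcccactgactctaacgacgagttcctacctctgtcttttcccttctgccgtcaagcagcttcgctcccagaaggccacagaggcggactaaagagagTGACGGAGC
The capitals are a TATA box in *Psmb4*, found on both strands with overlapping letters 78 and 76 bases before the start, and GC boxes 99 and 73 bases before the start in *Psmc4*. In *Psmd13* they are an ETS core 6 bases before the start, and in *Psme4* a GC box at 58 and ETS cores at 53 and 31, of which the first shares a base with the GC box. In *Psmb5* and *Psmb6* the capitals are antioxidant response cores 47 and 9 bases before the start. All positions count from the RefSeq start, which can differ from the gene boundary in the expression data. The *Psmd13* window lies wholly inside the gene as placed there (chr7:140881968-140898643). Those of *Psmb4*, *Psmb5*, *Psmc4* and *Psme4* overlap their genes in part. The 250 bases before the start were searched on both strands for 8 motifs. The ETS core TTCCGG was present in 18 of 40 proteasome promoters (45.0%) and in 13.6% of the 27025 gene symbols of the RefSeq promoter set. That set was not limited to genes in the expression data, so the shares of all symbols are over an unlike set. It was in 11 of 17 regulatory genes and 2 of 14 core genes. The GC box GGGCGG was present in 22 of 40 (55.0%) against 35.4% of all symbols, with 12 of 17 regulatory and 6 of 14 core genes. The CCAAT box (CCAAT) was present in 14 against 37.5% of all symbols, with 5 of 17 regulatory and 7 of 14 core genes. Differences between regulatory and core promoters were not tested. TATAAA was present in 4 against 14.3% and the E box CACGTG in 4 against 6.86%. The antioxidant response core TGACNNNGC, whose full form is bound by NFE2L1 and NFE2L2, was present in 5 (*Psmb5*, *Psmb6*, *Psmc6*, *Psmd12* and *Psmd9*) against 11.5% of all symbols. Of the longer motifs, the CREB site TGACGTCA (1.77% of all symbols) and the AP-1 site with GC, TGACTCAGC (0.426%) were in none of the 40 windows. These are letter matches and not measured binding.

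Treatment with *R. flavefaciens* alone was compared with control first. Proteasome transcripts were on average slightly more abundant after the bacterium, with 41 of 47 genes higher than in controls and a median log2 fold change of 0.10, against 0.0031 over all 14974 genes tested. No proteasome gene passed the limma test (adjusted p under 0.05), which called 0.0267% of all genes. With the first number of the mouse label as a random block, 3 genes passed, *Psma4* (adjusted p = 0.0467), *Psma7* (0.0467) and *Psmc5* (0.0487), and 221 of all genes. The correlation estimated for that block was -0.045, so that mice sharing a number were fitted as slightly less alike than mice that did not share one. Each number occurs in a single group, and its meaning is not given, so this fit cannot separate it from treatment. At an unadjusted p under 0.05, 21 proteasome genes (44.7%) were higher and 1 (2.13%), *Psme4*, lower, where all genes gave 8.86% higher and 10.8% lower. DESeq2 on the recovered reads called 4 of the genes, *Psma4*, *Psma7*, *Psmc4* and *Psmc5*, and 4.86% of all genes with an adjusted p. Of the 17 core genes 12 (70.6%) were higher at the unadjusted level, with a median log2 fold change of 0.15, and of the 20 regulatory genes 8 (40.0%) were higher, with a median of 0.081. By role, the medians were 0.16 for the other beta subunits (4 of 4 higher at the unadjusted level), 0.14 for the alpha ring (5 of 7), 0.11 for the ATPases (4 of 6), 0.11 for the constitutive catalytic subunits (1 of 3), 0.21 for the inducible ones (2 of 3) and 0.081 for the lid (3 of 8). They were smaller for the non-ATPase subunits of the base (0.0041, 1 of 3), the base chaperones (0.050, 0 of 3), the core chaperones (0.034, 0 of 4) and the activators (0.046, with 1 of 4 higher and 1 lower).

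*Psma4*, an alpha-ring subunit, had 683.79, 736.38 and 792.56 normalized counts in controls (lowest, median and highest), 717.52, 767.92 and 806.34 with duloxetine, 797.37, 827.84 and 930.04 with *R. flavefaciens* and 720.13, 796.21 and 835.57 with both. Every *R. flavefaciens* mouse was above every control mouse, and *Psma4* was the single proteasome gene for which these groups did not overlap (1.62% of all genes did not overlap). Its log2 fold change was 0.19 (SE 0.049, limma adjusted p = 0.0727). *Psma7*, another alpha-ring subunit, had 814.7, 863.96 and 925.4 in controls and 909.08, 984.66 and 1129.5 with *R. flavefaciens*, so that 5 of 6 treated mice were above all controls. The log2 fold change of *Psma7* was 0.21 (SE 0.054, adjusted p = 0.0727). The ATPase *Psmc5* had 1898.8, 2029 and 2123.1 in controls and 2076.1, 2272.6 and 2496.6 with *R. flavefaciens*, with 4 of 6 treated mice above all controls and a log2 fold change of 0.17 (SE 0.046, adjusted p = 0.0727). In each of these genes the shift was below 1.2-fold. The base subunit *Psmd4*, a ubiquitin receptor, differed by 0.13 (adjusted p = 0.148), the activator *Psme2* by 0.27 (0.124) and the core chaperone *Psmg4* by 0.23 (0.435). *Psme4*, which encodes the large activator PA200, went the other way with a log2 fold change of -0.16 (adjusted p = 0.148), and the inhibitor *Psmf1* had -0.055 (0.662). The value for *Psmf1* ran from -0.091 without mouse 7_2 to -0.024 without mouse 8_4 and was -0.14 without mice 7_2 and 9_3 (adjusted p = 0.421).

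**Figure D2:**
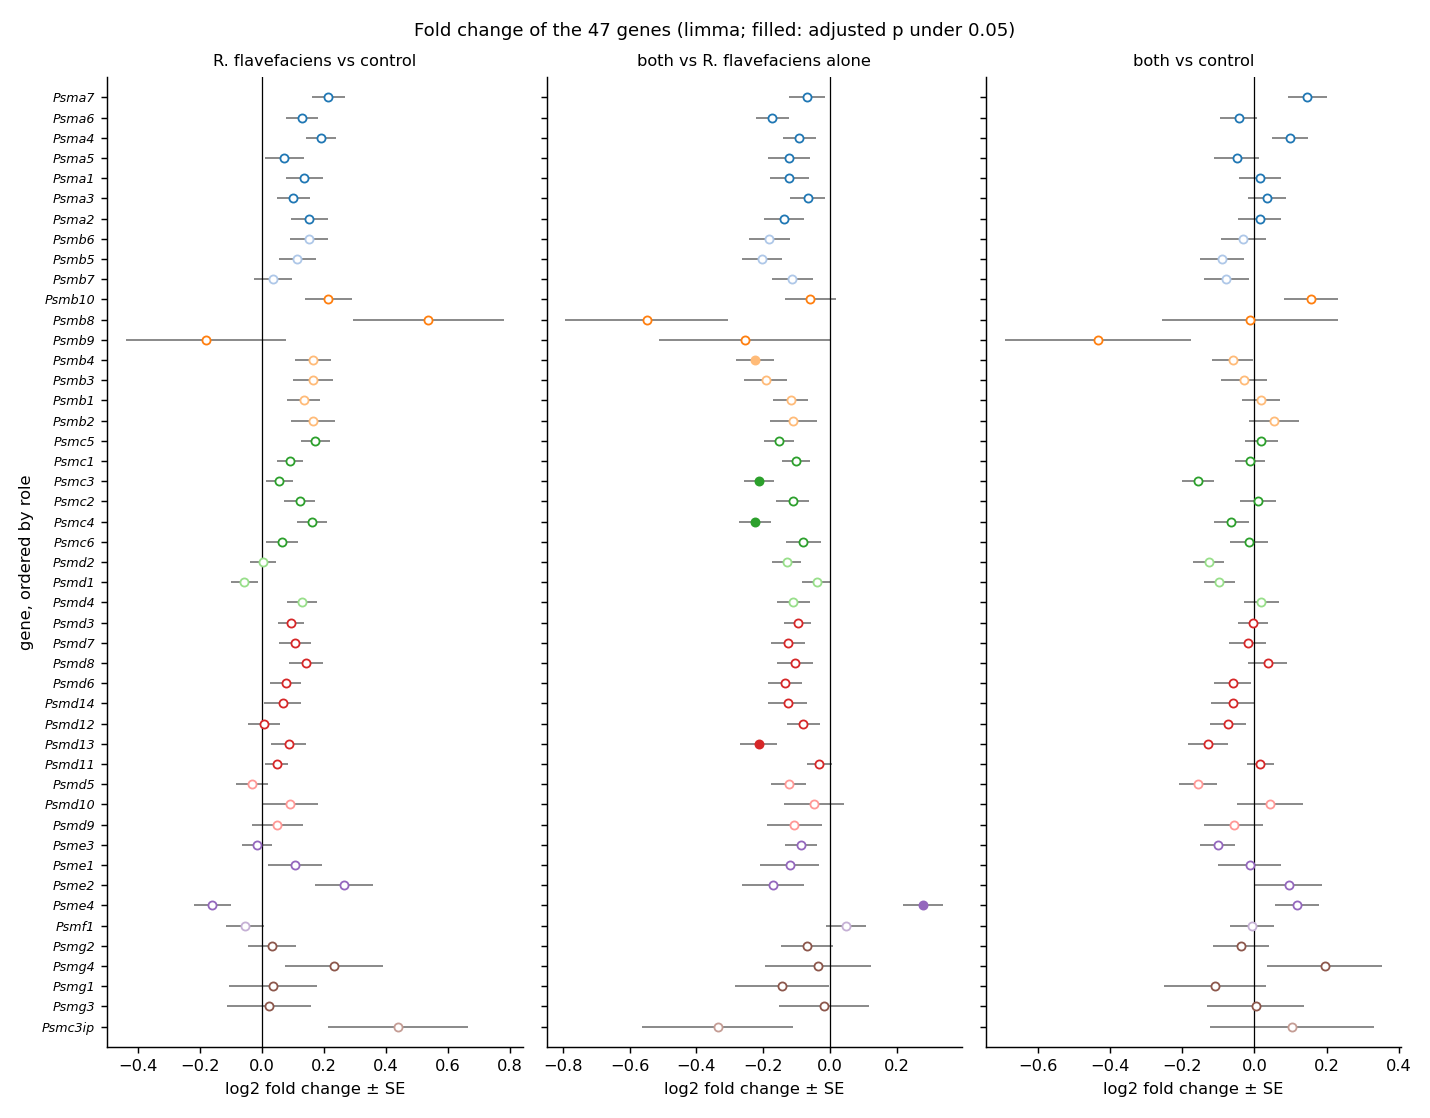
Log2 fold change (points, with bars of ± SE from the limma fit) of the 47 genes, ordered by role, for *R. flavefaciens* against control, the combined group against *R. flavefaciens* alone, and the combined group against control. Most points lie right of 0 in the first panel (41 of 47) and left of 0 in the second (45 of 47), where the 5 filled points had an adjusted p under 0.05, and the third panel is spread around 0 (19 higher, 28 lower).

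The size of this difference rested on mice 7_2 and 9_3. Without them 32 of the 47 genes were higher than in controls, with a median log2 fold change of 0.039 (core 0.067, regulatory 0.021), and 4 genes (*Psma4*, *Psma7*, *Psmc4* and *Psmc5*) were higher and 1 (*Psmf1*) lower at an unadjusted p under 0.05, where all genes then gave 4.61% and 5.21%. *Psma4*, *Psma7* and *Psmc5* had adjusted p of 0.378, 0.389 and 0.421 without them. The medians by role were then 0.086 for the other beta subunits, 0.058 for the alpha ring, 0.045 for the constitutive and 0.080 for the inducible catalytic subunits, 0.040 for the ATPases and 0.025 for the lid, and between -0.025 and -0.0071 for the other base subunits, both sets of chaperones and the activators. The core deviation was 0.26 in mouse 7_2 and 0.34 in mouse 9_3 and the regulatory deviation 0.17 and 0.19, so that in both mice core exceeded regulatory. Across the *R. flavefaciens* group the difference of core minus regulatory ran from -0.048 over a median of 0.042 to 0.14, and in controls from -0.069 over -0.022 to -0.0037. The ranges overlapped in all 4 groups, with medians of 0.017 in the duloxetine and 0.0038 in the combined group. The variation between mice was also wider, with a median coefficient of variation over the 47 genes of 9.08% in the *R. flavefaciens* group, 6.73% in the combined, 4.83% in the duloxetine and 4.33% in the control group. Over the other 4 *R. flavefaciens* mice it was 4.70%.

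**Figure D3:**
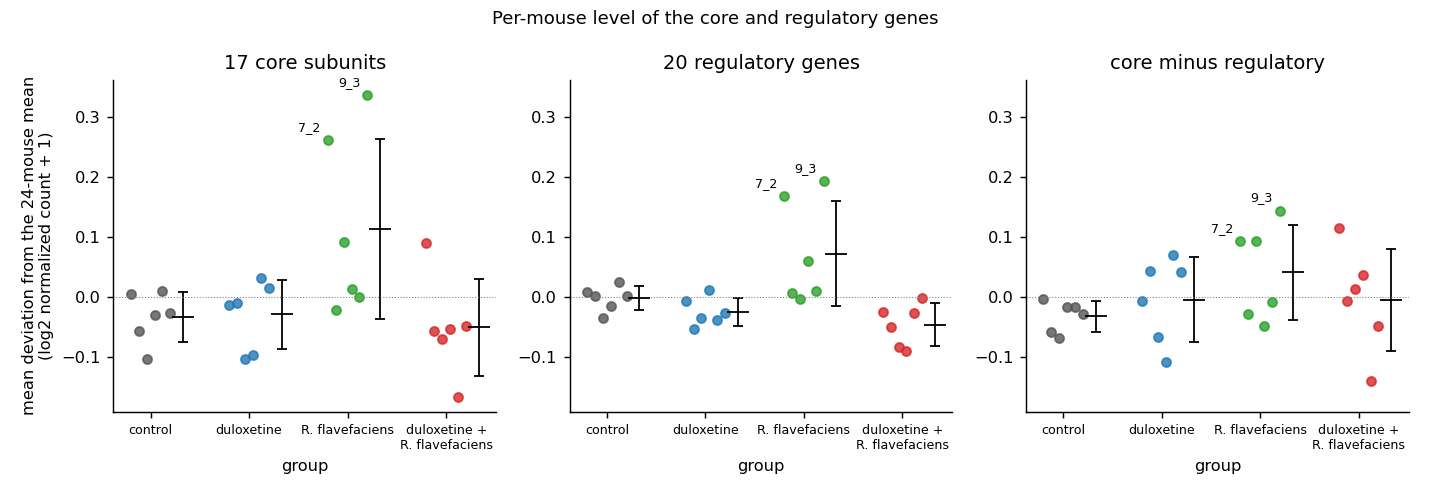
Mean deviation from the 24-mouse mean (log2 normalized count + 1) of the 17 core genes, the 20 regulatory genes and their difference in each mouse (points), with mean ± SD of each group of 6. Mice 7_2 and 9_3 of the *R. flavefaciens* group are the highest in both gene sets (core 0.26 and 0.34, regulatory 0.17 and 0.19), and of the other 4 mice of that group, 8_4 and 9_1 lie above every control in the core and 9_1 in the regulatory set.

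Transcript length moved with the same comparison. The Spearman correlation of transcript length with the log2 fold change for *R. flavefaciens* against control was -0.50 across the 47 genes and -0.48 across the 14958 tested genes with a length, so that short transcripts were higher and long ones lower. Without mice 7_2 and 9_3 it was -0.405 and -0.268. These are correlations across genes measured in the same libraries, and genes are not independent replicates. The slope of expression on length was most negative in mouse 9_3 (-0.17) and mouse 7_2 (-0.064), followed by mouse 8_4 (-0.050), and the other 21 mice lay between -0.036 and 0.045. After a smooth trend on length was removed, the median log2 fold change of the proteasome genes was 0.028 (core 0.032, regulatory 0.028) and 1 gene (*Psma2*, 2.13%) instead of 21 was higher at the unadjusted level, where 5.49% of all genes were higher in that fit. What underlies the relation to length was not tested.

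Adding duloxetine to *R. flavefaciens* was the 1 comparison of the 8 in which limma called proteasome genes. Compared with *R. flavefaciens* alone, 45 of the 47 genes were lower in the combined group, with a median log2 fold change of -0.12 against 0.0019 over all genes. Of the 47 genes, 5 passed the limma test, which called 2.23% of all genes, with *Psmc3*, *Psmc4*, *Psmb4* and *Psmd13* lower and *Psme4* higher. At an unadjusted p under 0.05, 22 (46.8%) were lower and 1 (2.13%), *Psme4*, higher, against 9.9% and 9.76% of all genes. This held for core and for regulatory genes, with 9 of 17 core genes (52.9%, median -0.12) and 13 of 20 regulatory genes (65.0%, median -0.11) lower at that level, and all 37 of them had a negative fold change. DESeq2 called 8 genes, adding *Psma6*, *Psmb5* and *Psmc5* to the 5, and 4.52% of the 13812 genes to which it gave an adjusted p. This comparison shares the *R. flavefaciens* mice with the comparison above, so that a high value in mice 7_2 and 9_3 enters both with opposite sign.

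*Psmc3* (ENSMUSG00000002102.15, GRCm38 chr2:91054009-91066369, plus strand) encodes an ATPase of the base. It had 1724.3, 1782.7 and 1890.5 normalized counts in controls, 1708, 1734.3 and 1894.1 with duloxetine, 1739.2, 1845.3 and 2042.2 with *R. flavefaciens* and 1499.3, 1635.2 and 1712.3 with both. The combined group lay below every *R. flavefaciens* mouse and also below every control mouse. Its log2 fold change against *R. flavefaciens* alone was -0.21 (SE 0.044, limma adjusted p = 0.0171). *Psmc4* (ENSMUSG00000030603.16, chr7:28041707-28050101, minus strand), another ATPase of the same ring, had 895.57, 931.23 and 966.11 in controls, 832.35, 914.51 and 979.59 with duloxetine, 951.49, 1025.6 and 1131.4 with *R. flavefaciens* and 804.29, 898.38 and 938.81 with both. All 6 combined mice were below all 6 *R. flavefaciens* mice, with a log2 fold change of -0.23 (SE 0.048, adjusted p = 0.0171), and overlapped the controls. The promoter of *Psmc4* printed above holds GC boxes, while *Psmc3* had no window in the RefSeq promoter set.

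*Psme4* (ENSMUSG00000040850.17, chr11:30771726-30880361, plus strand) had 518.33, 579.04 and 638.45 normalized counts in controls, 541.09, 598.11 and 652.46 with duloxetine, 456.88, 530.49 and 567.11 with *R. flavefaciens* and 586.56, 626.97 and 695.21 with both. It was the single proteasome gene called higher, with every combined mouse above every *R. flavefaciens* mouse and a log2 fold change of 0.28 (SE 0.060, adjusted p = 0.0172). Its transcript is also the longest of the 47, at 6491 bases. With *Psmc3* and *Psmc4*, *Psme4* makes 3 proteasome genes whose groups did not overlap in this comparison, as did 1.44% of all genes.

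*Psmb4* (ENSMUSG00000005779.12, chr3:94884093-94886961, minus strand), a non-catalytic beta subunit, had 1348.6, 1388.9 and 1474.7 normalized counts in controls, 1371.1, 1436 and 1473.4 with duloxetine, 1404.5, 1521 and 1934.4 with *R. flavefaciens* and 1237.5, 1322.3 and 1452.9 with both. The groups overlapped, with 4 of 6 combined mice below all *R. flavefaciens* mice, and the log2 fold change was -0.23 (SE 0.057, adjusted p = 0.0344). *Psmd13* (ENSMUSG00000025487.15, chr7:140881968-140898643, plus strand), a lid subunit, had 856.95, 925.08 and 993.75 in controls, 826.03, 893.69 and 980.67 with duloxetine, 892.15, 939.63 and 1165.1 with *R. flavefaciens* and 811.4, 832.01 and 899.26 with both. Here 5 of 6 combined mice were below all *R. flavefaciens* mice, and the log2 fold change was -0.21 (SE 0.055, adjusted p = 0.0395). Without mice 7_2 and 9_3 none of the 5 genes passed. Their log2 fold changes were then -0.16 for *Psmc3*, -0.17 for *Psmc4*, 0.23 for *Psme4*, -0.13 for *Psmb4* and -0.14 for *Psmd13*, with adjusted p from 0.0641 to 0.176. The median over the 47 genes was -0.045 without these mice, with 8 genes lower and 2 higher at the unadjusted level against 7.28% and 7.44% of all genes. Removing the length trend left the same 5 genes called and a median of -0.11. With the combined and *R. flavefaciens* groups alone in the fit, no gene passed. When each of the 24 mice was left out in turn, *Psmc3*, *Psmc4* and *Psme4* each passed in 23 of the 24 fits, with adjusted p of 0.0567, 0.0567 and 0.0569 without the combined mouse 11_3, while *Psmb4* passed in 18 and *Psmd13* in 17. *Psmb4* was lost without mouse 7_2, 9_3, 11_3, 11_4, 12_2 or 12_3 (adjusted p up to 0.103) and *Psmd13* without any of these or mouse 9_1 (up to 0.1).

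**Figure D4:**
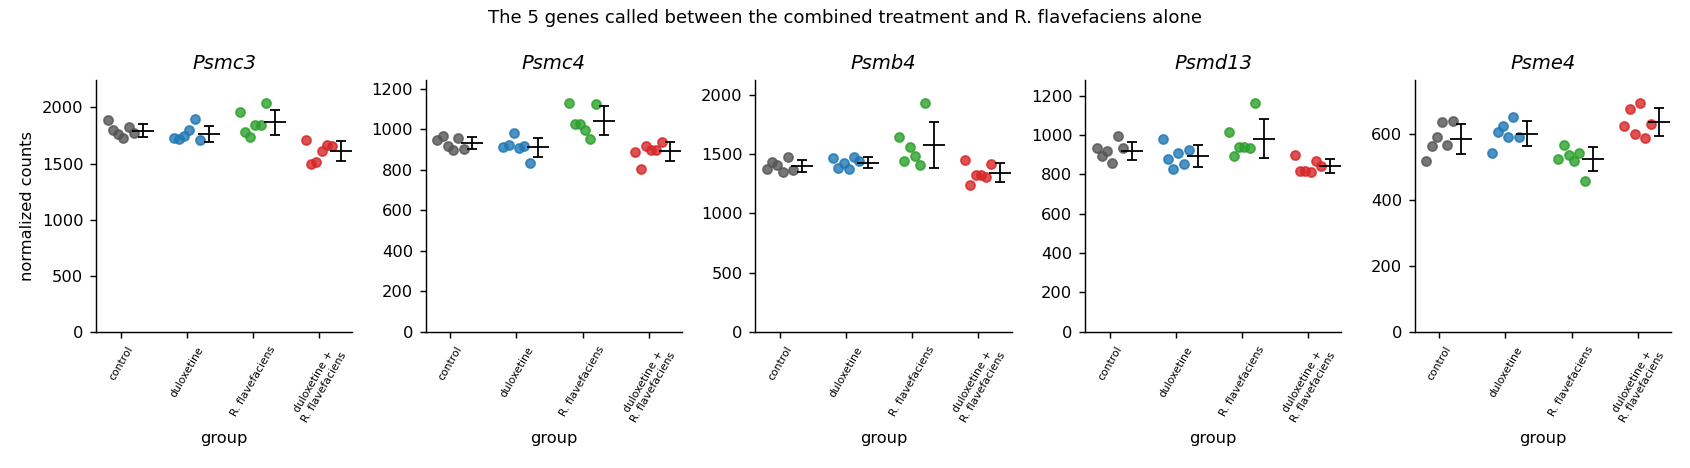
Normalized counts of *Psmc3*, *Psmc4*, *Psmb4*, *Psmd13* and *Psme4* in each of the 24 mice (points) with mean ± SD of each group of 6 and vertical axes that start at 0. The combined group lies below the *R. flavefaciens* group without overlap in *Psmc3* and *Psmc4* and above it in *Psme4*, and the highest values of *Psmb4* (1934.4) and *Psmd13* (1165.1) are in the *R. flavefaciens* group.

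Against control, proteasome genes of the combined group had a median log2 fold change of -0.014 (core -0.013, regulatory -0.038), against 0.0007 over all genes, and 19 genes were higher and 28 lower. With 1 mouse left out the median ran from -0.0245 to -0.0058 (core -0.0245 to 0.012, regulatory -0.046 to -0.016). With the length trend removed the median was -0.084 (core -0.077, regulatory -0.088), against -0.025 over all genes, and 15 genes were lower and 1 higher at an unadjusted p under 0.05, against 12.3% and 6.04% of all genes. *Psmc3* was then called. None passed the limma test (0.1% of all genes did). At the unadjusted level 2 genes (4.26%) were higher, the core genes *Psma7* and *Psmb10*, and 6 (12.8%) lower, of which 5 were regulatory, against 8.08% and 8.73% of all genes. *Psmc3* again had the smallest p, with a log2 fold change of -0.16 (SE 0.044, adjusted p = 0.112). It was the single proteasome gene whose combined and control mice did not overlap (2.04% of all genes did not). It was also the single one called by DESeq2 (adjusted p = 0.0414), which called 1.68% of the 12941 genes to which it gave an adjusted p. Next came *Psmd5*, a chaperone of the base, with 594.34, 627.6 and 691.07 normalized counts in controls and 533.51, 567.38 and 631.03 with both. The groups overlapped, with 4 of 6 combined mice below all controls and a log2 fold change of -0.16 (adjusted p = 0.154). *Psma7* (0.15, adjusted p = 0.189) and *Psmb10* (0.16, 0.293) pointed the other way, and the nuclear activator *Psme3* had -0.10 (0.284). Without mice 7_2 and 9_3, which are in neither of these groups but enter the shared estimate of the spread, *Psmc3* passed with the same fold change (limma adjusted p = 0.044).

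No change of proteasome transcripts was detectable with duloxetine alone. Relative to control the 47 genes had a median log2 fold change of -0.0023, with 22 of 47 genes higher. None of them was called, at an adjusted or an unadjusted p under 0.05, where all genes gave 0.0% at the adjusted and 2.2% higher and 1.63% lower at the unadjusted level. The smallest limma adjusted p of the 47 genes was 0.9996. Adding *R. flavefaciens* to duloxetine, the combined against the duloxetine group, likewise gave no call (0.0% of all genes) and a median of -0.025. With 1 mouse left out that median ran from -0.037 to -0.0067. There 1 gene, *Psmc3*, was lower at the unadjusted level and none higher, against 2.88% and 3.02% of all genes.

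The design also allows each agent to be averaged over the other, 12 mice against 12. For *R. flavefaciens* the median log2 fold change was 0.045 (core 0.061, regulatory 0.028; -0.010 over the 47 genes with the length trend removed), with no proteasome gene called by limma (0.0267% of all genes). At the unadjusted level 8 were higher and none lower, against 7.68% and 10.4% of all genes. DESeq2 called *Psma4* and *Psma7*, and 6.73% of the 6555 genes to which it gave an adjusted p. For duloxetine the median was -0.063, and all 20 regulatory genes and 15 of the 17 core genes had a negative fold change. No gene was called by limma (1.03% of all genes), and at the unadjusted level 13 (27.7%) were lower and 1 (2.13%), *Psme4*, higher, against 7.49% and 7.44%. DESeq2 called *Psmc3*, *Psmc4* and *Psme4*, and 2.28% of the 14103 genes to which it gave an adjusted p. The interaction term asks whether the effect of the combination differs from the sum of both agents. Its median over the 47 genes was -0.13 (core -0.15, regulatory -0.094), and all 17 core genes were negative. None passed at an adjusted p under 0.05 (0.0% of all genes), and 10 (21.3%) were lower and 1 (2.13%), again *Psme4*, higher at the unadjusted level, against 3.67% and 3.86%. Without mice 7_2 and 9_3 the medians were 0.0083 for *R. flavefaciens*, -0.030 for duloxetine and -0.048 for the interaction.

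The immunoproteasome was followed through the ratio of each inducible catalytic subunit to the constitutive subunit whose place it takes. *Psmb10* relative to *Psmb7* was at 45.9%, 46.8% and 49.8% in controls (lowest, median and highest), 45.4%, 51.1% and 54.9% with duloxetine, 44.7%, 53.6% and 61.5% with *R. flavefaciens*, and 47.8%, 53.1% and 72.2% with both. The ratio was above every control in 4, 5 and 5 of the 6 mice of the 3 treated groups. The mean log2 ratio of the combined group exceeded that of controls by 0.23 (two-sided exact permutation test, p = 0.00433, p = 0.039 after Benjamini-Hochberg adjustment over 9 tests). Both genes entered it, with log2 fold changes of 0.16 for *Psmb10* and -0.078 for *Psmb7*, neither of them called. The SD of the log2 ratio was 0.22 in the combined group and 0.042 in controls. Without 1 mouse the difference in log2 ratio ran from 0.16 (without mouse 12_2) to 0.28. With *R. flavefaciens* alone the difference was 0.18 (exact p = 0.0173, adjusted 0.0779; 0.11 without mice 7_2 and 9_3) and with duloxetine alone 0.11 (exact p = 0.0368, adjusted 0.11). The smallest p these tests allow is 0.00216. No microglia marker passed the limma test. At the unadjusted level 4 of 10 were higher than in controls with duloxetine (2.2% of all genes were), 6 of 10 with *R. flavefaciens* (8.86%) and 8 of 10 with both (8.08%), and their part in the ratio was not tested. *Psmb8* was at a median of 2.00% of *Psmb5* in controls, 2.38% with duloxetine, 2.99% with *R. flavefaciens* and 2.28% with both, and *Psmb9* at 1.56%, 1.49%, 1.31% and 1.36% of *Psmb6* in the same order. Neither ratio differed beyond the spread between mice, with exact adjusted p of 0.234 or more. With *R. flavefaciens* alone the difference in log2 ratio was 0.42 for *Psmb8* to *Psmb5* (0.27 without mice 7_2 and 9_3) and -0.33 for *Psmb9* to *Psmb6* (-0.39 without them, and -0.20 without the control mouse 3_1). *Psmb8* itself had 12.34, 16.855 and 22.85 normalized counts in controls and 13.8, 27.87 and 38.78 with *R. flavefaciens*. The groups overlapped (log2 fold change 0.54, adjusted p = 0.218 by limma), and at these counts only large differences can be seen. The activator pair that serves the immunoproteasome, *Psme1* and *Psme2*, had log2 fold changes of 0.11 (adjusted p = 0.533) and 0.27 (0.124) with *R. flavefaciens* alone.

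**Figure D5:**
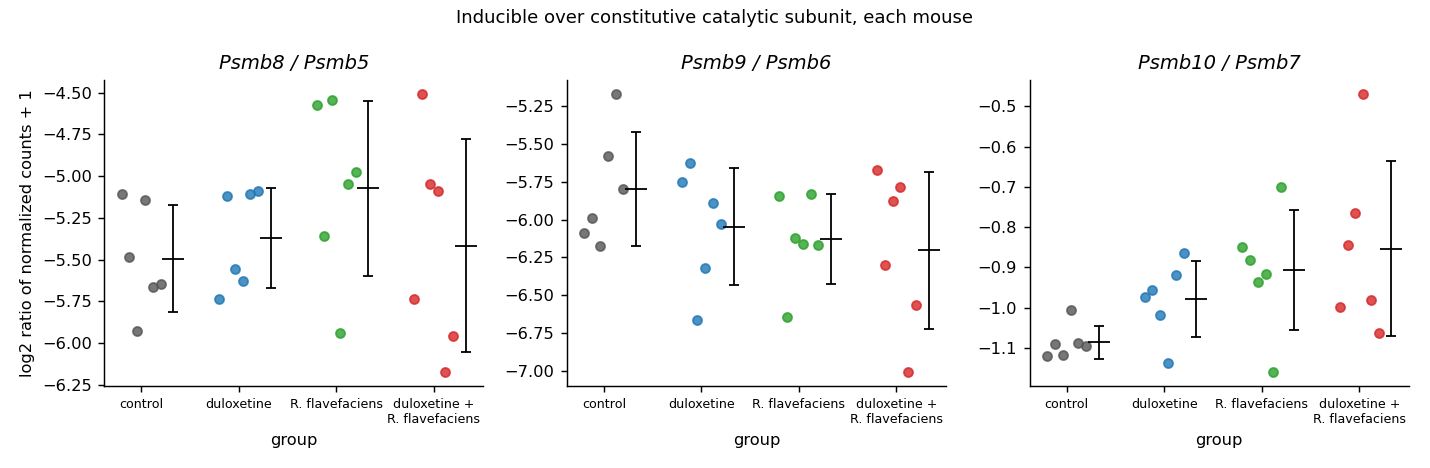
Log2 ratio (normalized counts + 1) of each inducible catalytic subunit to its constitutive counterpart in each mouse (points), with mean ± SD of each group of 6. *Psmb10*/*Psmb7* lies near -1.09 in controls (median) and above every control in 5 of 6 mice of the *R. flavefaciens* and of the combined group, while the groups overlap for *Psmb8*/*Psmb5* and *Psmb9*/*Psmb6*.

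Within groups, proteasome genes varied together. After each group mean was subtracted, the median Pearson correlation over the 24 mice was 0.31 across the 1081 pairs of proteasome genes, 0.51 within the core, 0.33 within the regulatory set and 0.38 between them, against -0.002 over all gene pairs. All points come from the same libraries and share their depth and composition. Mice 7_2 and 9_3 contributed much of this, since without them the medians were 0.095, 0.30, 0.15 and 0.11 and that over all gene pairs stayed at -0.002. *Psmb4* had the highest mean correlation with the other genes (0.47) and *Psme4* the lowest (-0.29).

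Genes that act with the proteasome but carry other names were counted from 4 lists, of which no gene was called in any comparison. The shares of all genes at the unadjusted level were 8.86% higher with *R. flavefaciens* alone and 9.9% lower for the combined group against *R. flavefaciens* alone, and with lists this short a few genes lie near such a share. Of the 9 further proteasome genes in the table (a lid subunit, assembly factors and proteins that bind the proteasome), 2 were higher and none lower at the unadjusted level with *R. flavefaciens* alone, with a median log2 fold change of 0.016. Among them *Pomp*, the maturation protein that helps the core ring pairs join, had 877.7 ± 17.3 normalized counts in controls and 1009 ± 126 with *R. flavefaciens* (SD, n = 6; log2 fold change 0.19, limma adjusted p = 0.093). A list of 9 genes around NFE2L1, which raises proteasome genes when the proteasome is impaired, and the separate factor NFE2L2 had 1 gene higher. This gene was *Nfe2l2* itself (0.29, adjusted p = 0.134), and the list median was -0.0059. Of 10 ubiquitin precursors and shuttles 3 were higher (median 0.059), with *Rps27a*, a ubiquitin fusion gene, at 0.21 (adjusted p = 0.168). Of 16 genes of MHC class I loading and the interferon response 5 were higher (median 0.15), with *Bst2* at 0.81 (adjusted p = 0.0806). In the combined group against *R. flavefaciens* alone, these lists had 0, 1, 1 and 1 genes lower and none higher at the unadjusted level, with medians of -0.034, -0.030, -0.066 and -0.079. Without mice 7_2 and 9_3 the 4 lists had 0, 1, 1 and 3 genes higher with *R. flavefaciens* alone (medians -0.013, -0.00050, 0.014 and 0.13) and 0, 0, 1 and 1 lower in the combined group against *R. flavefaciens* alone (medians -0.011, -0.048, -0.0195 and -0.045).

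No marker gene of other cell types was called by limma. With *R. flavefaciens* alone, where 8.86% of all genes were higher at the unadjusted level, 6 of 10 microglia markers were higher at that level (median log2 fold change 0.22), as were 4 of 5 blood markers (0.75), 3 of 10 astrocyte markers (0.14) and 1 of 3 choroid plexus markers (0.98), with *Folr1* and *Kcnj13* of that list not in the table. Summed microglia counts were 4366, 4774.6 and 5054 in controls (lowest, median and highest) and 4910.4, 5324.9 and 6175.5 with *R. flavefaciens*, with *Csf1r* the most abundant gene. Without mice 7_2 and 9_3, 3 of 10 microglia (median 0.18), 3 of 5 blood (0.77), 2 of 10 astrocyte (0.13) and 2 of 3 choroid plexus markers (1.61) were higher. So were 2 of 10 inhibitory neuron (0.092) and 1 of 8 striatum markers (0.28), while 1 of 10 excitatory markers was lower (-0.052). The oligodendrocyte median was then 0.33, with no marker higher or lower. Among the *R. flavefaciens* mice 9_3 held the 6175.5 and mouse 7_2 had 5316.7. Summed blood counts, led by *Hbb-bs*, were 278.4, 350.1 and 448.2 in controls and 417.8, 535.4 and 988.3 with *R. flavefaciens*, where mouse 7_2 had the lowest value. With all mice kept, inhibitory neuron markers had 4 genes higher and 1 lower, and excitatory ones 1 and 2. No marker of oligodendrocytes, endothelial cells or striatum then passed at that level (medians 0.13, 0.084 and 0.072). Summed oligodendrocyte counts, led by *Mbp*, ranged from 12355 to 55031 over all mice, with 13028 in mouse 7_2 and 32160 in mouse 9_3. In the combined group, where 8.08% of all genes were higher than in controls, 8 of 10 microglia, 5 of 5 blood, 4 of 10 astrocyte and 4 of 10 endothelial markers were higher at that level, while the proteasome median was -0.014. With duloxetine alone 4 of 10 microglia markers were higher than in controls (median 0.18, where 2.2% of all genes were higher) and the proteasome median was -0.0023. Summed microglia counts were 4596.6, 5461.3 and 5929.5 with duloxetine and 4586.3, 5543.7 and 6751.7 with both. In the combined group against *R. flavefaciens* alone, where 9.76% of all genes were higher and 9.9% lower at the unadjusted level, inhibitory neuron markers had 1 gene higher and 3 of 10 lower (median -0.089), endothelial markers 3 higher and 1 lower (0.13), astrocyte markers 2 of 10 higher (-0.029) and excitatory neuron markers 1 higher (0.026). No microglia, oligodendrocyte, blood, choroid plexus or striatum marker passed at that level (medians 0.036, -0.029, -0.023, -0.43 and -0.24). With mice 7_2 and 9_3 left out, 3 endothelial and 1 excitatory marker were higher and no marker of these lists was lower. The medians were then -0.087 for inhibitory neuron, -0.25 for oligodendrocyte, -1.05 for choroid plexus, -0.38 for striatum and 0.036 for astrocyte markers. Summed inhibitory counts, led by *Gad1*, were 11538, 12187 and 12844 with *R. flavefaciens* and 11021, 11594 and 12778 with both, and summed endothelial counts, led by *Rgs5*, were 5064.3, 5094.3 and 5655.6 and 4736.7, 5555 and 7085.7, so that the groups overlapped in both. The part of these cell types in the proteasome values was not tested.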

How the data were processed

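The authors deposited normalized counts per gene for 24 mice (a signal table with 1 column per mouse). According to the methods and the submitters' processing notes, reads were mapped with TopHat2 2.1.0 and Bowtie2 2.2.6 and normalized with DESeq2 1.18.1. The notes list mm9, whereas the methods name GRCm38, which gene positions match (14253 of 15456 at the same position in GENCODE vM21). The counting program, its use of strand and its treatment of processed pseudogenes are not given in the sources used here, nor is a sequencing batch. Values were whole multiples of 1 step per mouse (99.997% of 370875 nonzero values, within 0.0051 of a read), which gave the reads. Genes with a mean of at least 10 (14974) were tested on log2(normalized count + 1) with limma 3.58.1 in R 4.3.3 (trend, 4 groups in 1 fit, Benjamini-Hochberg adjustment within each comparison, threshold 0.05), so that low genes have understated fold changes. DESeq2 1.42.0 and edgeR 4.0.16 on recovered reads, another pseudocount, filters, scalings, length and GC trends, a block and leaving out mice were alternatives. Ratios were tested with exact permutation (scipy 1.17.1, 924 groupings). The statistics were tested on simulated data. Levels were divided by the GENCODE transcript length. The genes, marker lists and tests were chosen with earlier results of these data known. Genes named with values were the catalytic subunits, the gene with the smallest p of each family against control with the bacterium or both agents, genes called by limma or DESeq2, the extremes in level, and the leading gene of each list. *Psmd2*, *Psme1*, *Psma2* and genes named by motif were named after their values were seen.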

Additional observations from a re-analysis of the deposited data

Results flagged for a closer look

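In the combined group, mouse 11_3 had 804.3 normalized counts of *Psmc4*, below the other 5, and the gap to the next mouse was 0.629 of the range of the group. Without this mouse no proteasome gene was called against *R. flavefaciens* alone. The ratio of *Psmb10* to *Psmb7* in controls had 1 mouse at -1.006 (log2), above the other 5 by a gap of 0.715 of the range. Of 112 groups tested in this way 2 stood out, a smaller share than the 1 in 20 or so that chance gives.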

How the results depend on the processing

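With *R. flavefaciens* alone against control, 0 proteasome genes were called by limma or edgeR, but 4 by DESeq2 on recovered reads, 3 with the first label number as a random block and 4 at an adjusted p under 0.1. Over all genes the calls were 4 by limma, 4 by edgeR, 488 by DESeq2, 221 with the block and 579 at an adjusted p under 0.1. Leaving out 1 mouse gave 0 to 8 proteasome genes and 0 to 616 of all genes (2 and 427 without 8_3, 2 and 239 without 9_1, 8 and 616 without 9_2). The median log2 fold change was 0.028 with the length trend removed (core 0.032, regulatory 0.028), and that of the regulatory genes was 0.021 without mice 7_2 and 9_3. For both agents against *R. flavefaciens* alone, the 5 calls became 3 with quantile or 75th percentile scaling (316 and 292 of all genes), 8 with DESeq2 (624), 9 at an adjusted p under 0.1 (842), 0 with 2 groups in the fit, 0 without mice 7_2 and 9_3 (median -0.045), and 0 to 9 without 1 mouse, where all genes gave 334 calls and 47 to 577 without 1 mouse (0 of all genes with 2 groups in the fit, 138 without 7_2 and 9_3). Of the proteasome genes there were 0 without 11_3, 3 without 7_2, 9_3, 11_4, 12_2 or 12_3, and 9 without 9_2 (47 of all genes without 11_3, 319 without 9_2). Against control, both agents gave 1 call with the length trend removed (medians -0.084 and, for regulatory genes, -0.088), with DESeq2 or without 7_2 and 9_3, each time *Psmc3*. Of all genes there were 15 calls, 77 with the length trend removed, 217 with DESeq2, 195 without 7_2 and 9_3, 196 with 2 groups in the fit, 59 with the block, 30 at a minimum mean of 50, 23 with 75th percentile scaling, 126 at an adjusted p under 0.1 and 5 to 154 without 1 mouse (123 without 9_3, 154 without 12_4, 43 without 12_3). For duloxetine averaged over the bacterium, calls were 1 at a minimum mean of 50 and with either scaling, 3 with the block, the length trend, DESeq2 or an adjusted p under 0.1, and 0 to 2 without 1 mouse (2 without 12_4). Of all genes there were 154 calls, 180 at that minimum, 125 with quantile and 144 with 75th percentile scaling, 255 with the block, 289 with the length trend removed, 321 with DESeq2, 374 at an adjusted p under 0.1, and 46 to 260 without 1 mouse (46 without 3_1, 50 without 11_3, 260 without 12_4). For the bacterium averaged over duloxetine, DESeq2 called 2 and an adjusted p under 0.1 gave 1, where all genes gave 4 calls, 441 with DESeq2, 201 at an adjusted p under 0.1, 8 with the length trend removed and 1 to 135 without 1 mouse (135 without 8_3, 69 without 9_2). The median interaction was -0.048 without 7_2 and 9_3. The *Psmb10* to *Psmb7* difference was 0.11 with *R. flavefaciens* without 7_2 and 9_3, and 0.085 to 0.14 with duloxetine without 1 mouse, and that of *Psmb8* to *Psmb5* with *R. flavefaciens* 0.31 to 0.59 without 1 mouse and 0.27 without 7_2 and 9_3. Without 1 mouse that of *Psmb9* to *Psmb6* was -0.41 to -0.20 with *R. flavefaciens*, -0.33 to -0.12 with duloxetine and -0.51 to -0.24 with both. The cause of these changes was not tested. No called value changed sign. Medians near 0 did. The fits concerned called no proteasome gene, except that DESeq2 called *Psmc3* for both agents against control. With the length trend removed the median for the bacterium averaged over duloxetine was -0.010. With 75th percentile scaling that of both agents against control was 0.018 (core 0.018) and that of duloxetine alone 0.016. The core median of both agents against control was 0.015 at a minimum mean of 50, 0.0040 with quantile scaling, 0.020 with DESeq2 or edgeR and 0.0066 to 0.012 without mouse 1_1, 2_3 or 12_3. The core median of duloxetine alone was -0.014 with the length trend and -0.0068 with the GC trend removed and -0.0040 without 2_2, and its median over all 47 genes 0.0033 without 1_1 and 0.0051 without 5_4. The *Psmb8* to *Psmb5* difference of both agents was -0.11 without 11_3 and -0.0096 without 2_2. Among genes named singly, 26 differences that were not called changed sign in at least 1 setting. No paired analysis was possible because the groups share no replicate numbers in the labels. Depth limits *Psmb8*, *Psmb9* and *Psmc3ip*, which had 5 to 35 reads per mouse.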
